A study of Mus musculus with 58 samples.

Results

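Insulin cells of the mouse pancreas at embryonic day E18.5 were taken from single-cell transcriptomes made by SORT-seq, in which single cells are sorted into 384-well plates and each captured transcript is counted by its molecular barcode. Members were chosen by their hormone counts on the 3 E18.5 plates. A well needed 2000 or more transcripts, spike-ins left out, and 500 or more genes, a summed Ins1 and Ins2 count of 1% of its transcripts or more, and no count of Gcg, Sst, Ppy or Ghrl above the insulin count divided by 3. This rule found 605 members among 898 E18.5 cells that passed the depth limits, 67.4%, and among 4318 such cells of the series. It reads insulin and other hormone counts themselves, so the levels of these 6 genes describe the choice and are not tested.

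Beta cells make insulin as a pair of precursor proteins in the mouse, encoded by Ins1 and Ins2, process them in dense-core granules and release the hormone when glucose rises. They come from Neurog3-expressing endocrine precursors, and around birth they start to multiply while their glucose-sensing machinery matures. Prolactin and placental lactogen act on them through the prolactin receptor, whose signal runs through STAT5 and is known in rodents for driving beta-cell growth in pregnancy.

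All plates came from embryos of pregnant mip-gfp females, and MIP-GFP is green fluorescent protein driven by the mouse insulin promoter. At E18.5, experiment EP16 gave 3 plates: a plate called mosquito that is labelled as sorted for live cells, a plate of live cells, and a plate of cells sorted for MIP-GFP. They are set against insulin-gated cells of 4 earlier experiments, namely EP12 (E13.5), EP14 (E14.5) and the E15.5 experiments EP10 and EP17, each with MIP-GFP and live plates. Embryos were dissected one by one, dispersed with trypLE and sorted against a dead-cell stain. How many embryos stand behind a plate, and their sex, is not given in the sources used here. The p-values therefore measure the spread between experiments, which may be technical in part. In the comparison of stages that spread comes from the earlier experiments alone. It also holds any change from E13.5 to E15.5.

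The stage rests on the recorded age, since the titles of the EP16 MIP-GFP libraries name E14.5 and the age field names E18.5. The mosquito plate carries the code P6, used elsewhere for MIP-GFP plates, and 96.7% of its cells were members, close to the MIP-GFP plate and unlike the live plate, so its sort is uncertain and it is called by its name only. E18.5 was sampled in 1 experiment. Stage and experiment therefore cannot be told apart in any comparison of E18.5 with earlier days.

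Members made up 291 of 301 cells on the mosquito plate (96.7%, Wilson 95% interval 94.0 to 98.2), 20 of 278 on the live plate (7.19%, 4.71 to 10.9) and 294 of 319 on the MIP-GFP plate (92.2%, 88.7 to 94.6). These intervals cover counting error only. Of the 293 E18.5 cells left out, 273 had under 1% insulin and 20 failed only the 3-fold rule, with Gcg as the next hormone in 15 of them. The lowest insulin shares inside the limit were 1.01% and 1.36% on the MIP-GFP plate and 1.38% on the mosquito plate, and the highest shares outside it were 0.975%, 0.799% and 0.904% on the mosquito, live and MIP-GFP plates. The member with the smallest lead over another hormone held 3.08 times as much insulin as Ppy, and the nearest cell outside held 2.72 times as much.

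Members had a median of 19132 transcripts and 4890 genes per cell on the mosquito plate, 15619 and 4543.5 on the live plate, and 13014 and 4281 on the MIP-GFP plate. Insulin-gated cells of the earlier experiments had medians between 8567 transcripts (EP17) and 30002 (EP14). Levels below are in CPM, a gene's transcripts summed over the members of a plate or experiment and scaled to a total of 1000000 non-hormone transcripts. They are not divided by gene length. In such sums, fewer cells carrying a transcript and less of it per cell cannot be told apart.

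Iapp encodes the amyloid polypeptide released with insulin, and G6pc2 an islet glucose-6-phosphatase. Both followed the summed share of Ins1 and Ins2 across members of the mosquito and MIP-GFP plates. The proximal promoters of Ins1, Iapp and G6pc2 are therefore shown. They are the 250 bases before the RefSeq transcription start on the plus strand of GRCm38.p6: Ins1 at chr19:52264047-52264296, Iapp at chr6:142298175-142298424, and the first of 2 G6pc2 windows at chr2:69210823-69211072. Capitals mark E-box letters (CANNTG, the motif of basic helix-loop-helix factors such as NEUROD1) and the homeodomain core TAAT, each searched on both strands.
Ins1: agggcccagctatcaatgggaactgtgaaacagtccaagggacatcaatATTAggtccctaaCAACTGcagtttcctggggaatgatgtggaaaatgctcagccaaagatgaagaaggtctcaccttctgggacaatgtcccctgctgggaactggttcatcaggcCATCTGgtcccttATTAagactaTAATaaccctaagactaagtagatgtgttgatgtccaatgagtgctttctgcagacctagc
Iapp: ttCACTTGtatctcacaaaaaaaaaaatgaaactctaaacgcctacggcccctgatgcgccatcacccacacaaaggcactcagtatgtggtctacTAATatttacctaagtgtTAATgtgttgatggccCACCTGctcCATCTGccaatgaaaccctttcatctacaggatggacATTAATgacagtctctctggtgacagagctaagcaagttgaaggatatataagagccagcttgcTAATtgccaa
G6pc2: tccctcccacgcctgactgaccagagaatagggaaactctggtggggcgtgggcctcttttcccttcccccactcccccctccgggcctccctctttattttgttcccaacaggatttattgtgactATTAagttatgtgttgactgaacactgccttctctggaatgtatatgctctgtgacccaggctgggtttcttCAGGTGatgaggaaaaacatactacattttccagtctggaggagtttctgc
The Ins1 window held 2 E-boxes, at 188 and 84 bases before the start, and 3 TAAT cores, at 201, 71 and 61 bases. Iapp held 3 E-boxes and 5 TAAT cores, 2 of which overlap each other, and G6pc2 held 1 of each. Among 32851 RefSeq promoter windows of the same length, 66.2% held an E-box match and 54.9% a TAAT match, so a match is common and marks no binding site by itself.

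Insulin took a large and variable part of the transcriptome. The median insulin share was 20.7% of all transcripts on the mosquito plate (quartiles 14.6 and 26.0), 12.4% on the live plate (11.3 and 16.7) and 13.4% on the MIP-GFP plate (9.34 and 17.8). At the earlier days the medians were 2.51% at E13.5, 2.58% at E14.5, and 3.76% and 9.0% in the 2 experiments at E15.5. The highest single cell reached 73.9% on the mosquito plate and 32.5% on the MIP-GFP plate.

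On the live and MIP-GFP plates a barcode set of limited size caps any gene at 1597 transcripts per cell, while the mosquito plate has no such ceiling. Ins1 or Ins2 stood at the ceiling in 11 of 20 members on the live plate and in 100 of 294 on the MIP-GFP plate. On the mosquito plate 98 members exceeded that value for Ins1 and 193 for Ins2. Ins2 reached 9601 transcripts in 1 mosquito cell, with a plate median of 2389, and Ins1 reached 7337, with a median of 1111. The insulin shares of the capped cells on the live and MIP-GFP plates are therefore lower bounds.

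**Figure D1:**
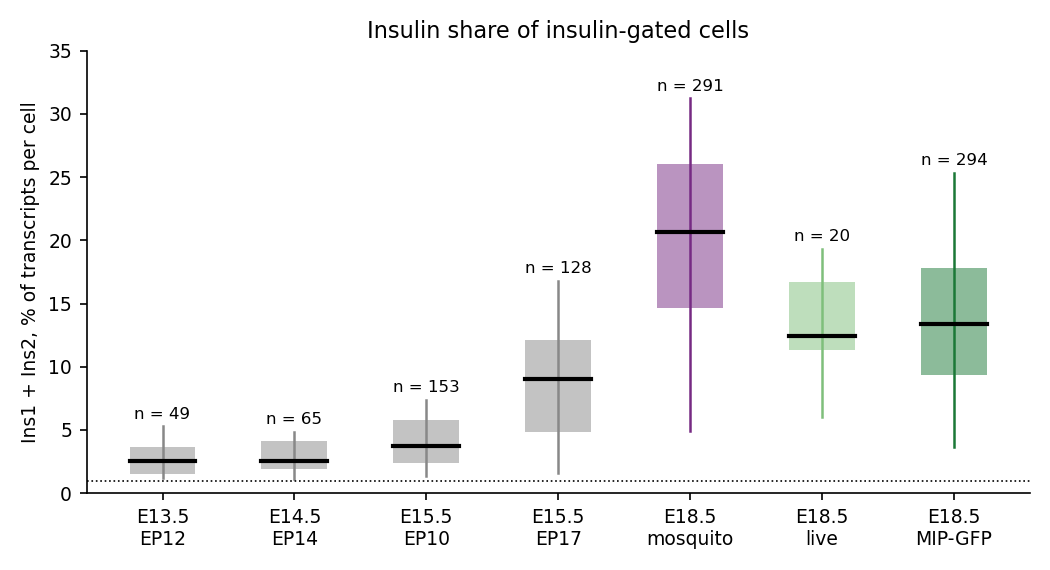
Share of transcripts from Ins1 and Ins2 in insulin-gated cells (y axis, percent) by plate or experiment (x axis): boxes span the quartiles, lines the 5th to 95th percentile, and the dotted line is the limit of 1%. Medians were 20.7%, 12.4% and 13.4% on the mosquito, live and MIP-GFP plates at E18.5, and 9.0% or less at the earlier days.

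Ins2 outnumbered Ins1 in most members. Where neither gene was capped, Ins2 made a median 69.8% of insulin transcripts on the mosquito plate, 62.4% on the live plate and 61.0% on the MIP-GFP plate, and it exceeded Ins1 in 277 of 291, 7 of 9 and 154 of 194 cells. Few members carried another hormone at 1% or more of transcripts: 4 on the mosquito plate (1 with Gcg, 1 with Sst, 2 with Ppy), 0 on the live plate and 4 on the MIP-GFP plate (2 with Sst, 2 with Ppy).

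The E18.5 plates were alike over most genes outside the hormones. Among 4515 genes with at least 50 CPM on either plate, the mosquito and MIP-GFP members had a Pearson correlation of 0.969 on the log2(CPM + 1) scale, across genes that are not independent replicates, and 24 genes (0.532%) differed by over 2-fold, 14 higher and 10 lower on the mosquito plate. The 20 live members differed from the MIP-GFP members by over 2-fold in 128 of 4699 genes (2.72%), 66 higher and 62 lower. Plates are single sorts of 1 experiment, so these ratios have no replicate check.

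The most abundant non-hormone transcripts were shared. Iapp stood at 20553 CPM on the mosquito plate, 18529 on the live plate and 19478 on the MIP-GFP plate. Gnas, which encodes the stimulatory G protein subunit that carries incretin signals, stood at 15422, 10157 and 10061 CPM in the same plate order. Among granule proteins, chromogranin A (Chga) stood at 7407, 5364 and 5878 CPM and chromogranin B (Chgb) at 4667, 3964 and 4167 CPM.

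The widest gaps between the mosquito and MIP-GFP plates lay in few genes. Kcp, a secreted BMP modulator, had 73.2 CPM on the mosquito plate, 0 on the live plate and 0.786 on the MIP-GFP plate, with a transcript in 179 of 291 mosquito members and 3 of 294 MIP-GFP members. Sept5, a septin linked to vesicle release, had 63.0, 0 and 2.62 CPM and was seen in 162 mosquito and 10 MIP-GFP members. The uncharacterised 4930402H24Rik had 414, 85.5 and 90.6 CPM. In the other direction, the leptin receptor Lepr had 64.9 CPM on the mosquito plate, 125 on the live plate and 148 on the MIP-GFP plate, and Gm9846 had 99.3, 266 and 278 CPM. For Peg10, 1 cell held 51.0% of the transcripts of the mosquito members and 1 cell held 44.5% of those of the MIP-GFP members. For Nptx2, 1 cell held 55.3% on the mosquito plate and 16.1% on the MIP-GFP plate.

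Against the insulin-gated cells of E13.5 to E15.5, 493 of 11101 genes tested (4.44%) differed at E18.5 by edgeR's quasi-likelihood test with Benjamini-Hochberg adjustment at 0.05: 392 higher (3.53%) and 101 lower (0.91%). The median log2 difference over all genes was -0.03. The 3 E18.5 plates were summed to 1 value against 4 experiments, so the lone E18.5 sum is assumed to vary like the earlier ones. Every E18.5 plate lay above all 4 experiments for 373 of the 392 and below all 4 for 95 of the 101. Over all 11101 genes tested, called or not, this held for 15.0% above and 13.4% below. The genes named by size of change were chosen to lie apart in this way, so their lack of overlap is no further support. The count was 256 without EP12, 201 without EP14 and 1240 without EP17, 162 against the E15.5 experiments alone, and 145 when insulin had to reach 5% of transcripts, which left 2 earlier experiments.

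In median, the called genes differed in the same direction in other cells of these experiments. They were chosen for their difference in insulin-gated cells, so the sizes in the other sets are a description and are not compared. The genes called higher had a median log2 difference of 2.00 in insulin-gated cells, 1.43 in glucagon-gated cells (the same rule with Gcg in place of insulin) and 0.98 in the other cells of the live plates, between the same experiments. The genes called lower had medians of -2.28, -1.23 and -0.40. Only 15 glucagon-gated cells were found at E18.5, with 236467 non-hormone transcripts in all, against 8947876 in the insulin members.

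Prlr, the prolactin receptor, and Ccnd2, a D-type cyclin that mouse beta cells need for growth after birth, were given as markers of these cells with earlier results known, so their differences are not independent evidence. On GRCm38 Prlr lies on chromosome 15 from 10177238 to 10349180 and Ccnd2 on chromosome 6 from 127125162 to 127152193. Prlr had 379, 585 and 435 CPM on the mosquito, live and MIP-GFP plates, against 3.04 CPM at E13.5, 8.00 at E14.5, and 24.1 (EP10) and 12.8 (EP17) at E15.5. Every E18.5 plate lay above every earlier experiment, as for 15.0% of all genes tested. The log2 difference was 4.90 (SE 0.47, adjusted p = 0.000863). It was 3.50 with the gate at 5% insulin and 5.67 without EP10. Prlr stood at 29.6 CPM in E18.5 glucagon-gated cells and at 8.90 CPM in the other live E18.5 cells, where the earlier mean was 0.904 CPM. The E18.5 change in insulin-gated cells differed from that in glucagon-gated cells by a fitted -3.71 on the log2 scale (SE 1.58, adjusted p = 0.435). No Prlr transcript was found in the earlier glucagon-gated sums, so this fitted size rests on counts of 0.

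Ccnd2 had 607, 789 and 667 CPM on the mosquito, live and MIP-GFP plates, against 25.3, 24.0, 97.6 and 56.3 CPM in EP12, EP14, EP10 and EP17. The groups did not overlap, with E18.5 above, as for 15.0% of all genes tested. The log2 difference was 3.59 (SE 0.53, adjusted p = 0.00658). It was 2.48 with the gate at 5% insulin and 4.20 without EP10. Glucagon-gated cells reached 833 CPM at E18.5, against an earlier mean of 191 CPM, and the other live cells had 292 CPM at E18.5, against 308 CPM. The change in insulin-gated cells exceeded that in glucagon-gated cells by 1.49 on the log2 scale (SE 0.23, adjusted p = 0.000299). The other D-type cyclins did not pass the test: Ccnd1 had 21.1, 9.86 and 20.2 CPM, against 5.06 to 9.39 CPM earlier (adjusted p = 0.073), and Ccnd3 had 15.8, 13.1 and 8.90 CPM, against 1.71 to 8.09 CPM (adjusted p = 0.168). Ccnd1 passed without EP17 (0.0221), and the Ccnd2 difference between the gates was not called when insulin or Gcg had to reach 5% of transcripts (0.49).

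Of 19 genes tested that are known to respond to prolactin in islets, 6 rose and 0 fell, Prlr and Ccnd2 among them, and the list's median log2 difference was 1.38, against 0.57 in glucagon-gated and 0.68 in the other live cells. Prlr and Ccnd2 were given as markers with earlier results known, so their part in this count and median is not independent evidence. Between 6 and 9 rose under each alternative tried. The share called higher over all genes tested was 3.53% in the main comparison. Cish, a STAT5-induced inhibitor of cytokine signals, had 129.9, 122 and 159 CPM on the mosquito, live and MIP-GFP plates, against 19.2, 17.6, 25.9 and 17.1 CPM in EP12, EP14, EP10 and EP17 (2.80, SE 0.24, adjusted p = 0.000471). Socs2, of the same family, had 148, 138 and 152 CPM, against 27.3, 34.7, 41.5 and 21.3 CPM (2.23, SE 0.26, adjusted p = 0.0021). Neither gene overlapped between the stages, and 15.0% of all genes tested lay above in this way. Cish was named by a rule that required this. The log2 differences of Cish and Socs2 in glucagon-gated cells were 1.32 and 1.63.

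Tph1, which starts serotonin synthesis and is known to be induced by lactogens in mouse islets, had 24.0, 16.4 and 26.5 CPM, against 0.581 to 1.71 CPM (4.66, SE 0.50, adjusted p = 0.0016). Lrrc55, a leucine-rich repeat protein, had 18.4, 23.0 and 25.9 CPM and was at 0 in all 4 earlier experiments (adjusted p = 0.00501). It was at least 54.3-fold higher at E18.5 by a floor of 3 transcripts over the summed earlier cells (0.401 CPM). The 13 other genes of the list did not pass the test.

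**Figure D2:**
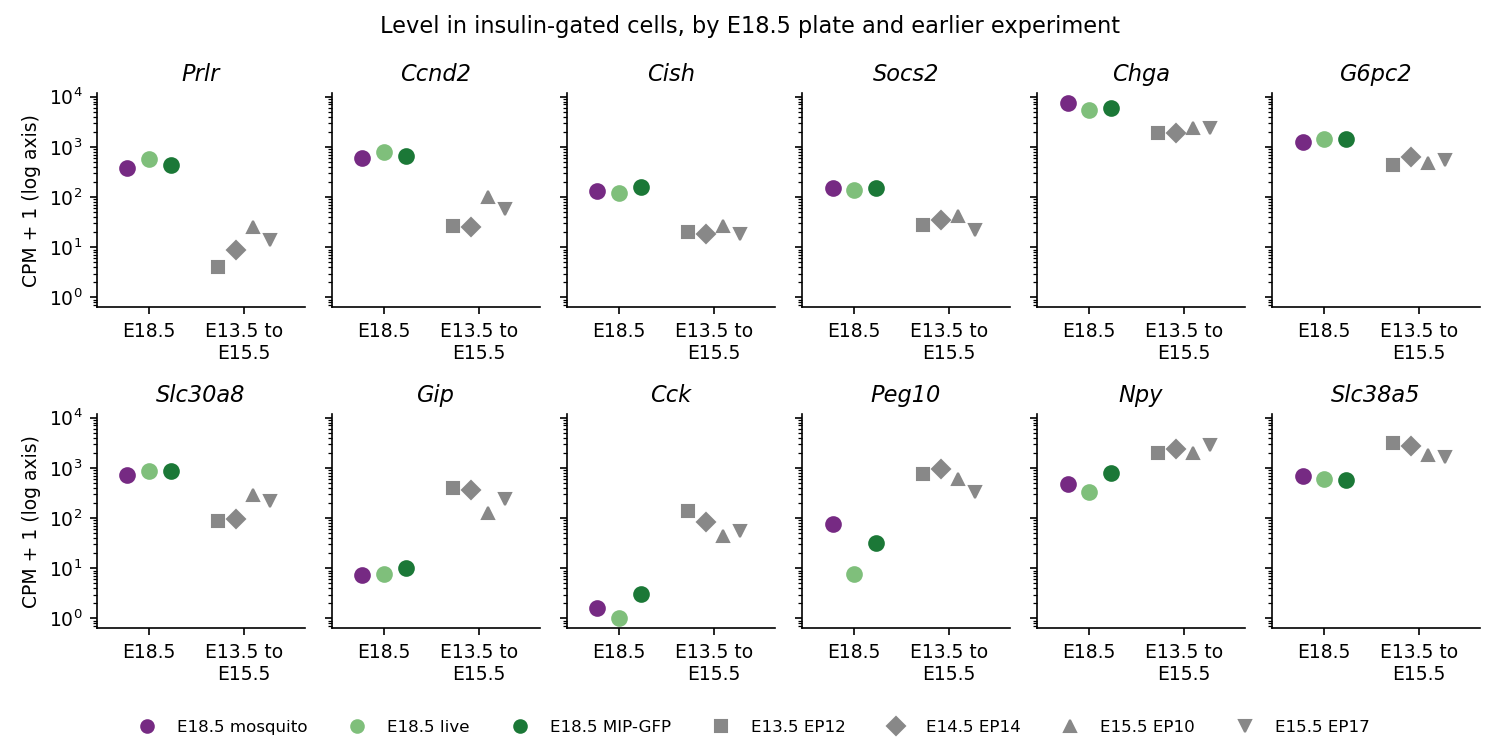
CPM + 1 of summed insulin-gated cells on a log axis (y) for 12 genes: each point is an E18.5 plate (left in each panel) or an earlier experiment (right). Prlr stands at 379 to 585 CPM at E18.5 and at 24.1 CPM or less before, while Gip stands at 8.90 CPM or less at E18.5 and at 125 CPM or more before.

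Of 37 cell-cycle genes tested, 15 rose at E18.5 and 0 fell, with a median log2 difference of 1.67. The count ran from 8 to 20 over the alternatives. Over all genes tested, 3.53% were called higher. Mki67, the antigen of dividing nuclei, had 39.0, 108 and 53.7 CPM on the mosquito, live and MIP-GFP plates, against 3.04, 2.67, 5.23 and 2.56 CPM in EP12, EP14, EP10 and EP17 (log2 difference 3.68, SE 0.35, adjusted p = 0.000784). Top2a, the DNA topoisomerase of dividing cells, had 35.2, 112 and 52.4 CPM, against 0.853 to 6.94 CPM (3.66, SE 0.43, adjusted p = 0.00241). Both lay above every earlier experiment on every plate, as did 15.0% of all genes tested. On the live plate 1 cell held 23 of the 33 Mki67 transcripts (69.7%), and 3 of the 20 members carried any. The list's median was 1.37 in glucagon-gated cells and -0.90 in the other live cells. Mki67 rose more in insulin-gated than in glucagon-gated cells (difference 2.57, SE 0.61, adjusted p = 0.0323), while for Top2a the difference was 1.11 (adjusted p = 0.62). Without EP10 the Mki67 difference between the gates was 0.76 and not called (adjusted p = 0.814).

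Counted cell by cell after thinning each to 4000 non-hormone transcripts, cells with at least 10 transcripts of the cell-cycle list made up 13 of 260 on the mosquito plate (5.00%, Wilson 95% interval 2.94 to 8.37), 2 of 19 on the live plate (10.5%, 2.94 to 31.4) and 14 of 266 on the MIP-GFP plate (5.26%, 3.16 to 8.64), against 1 of 150 in EP10 at E15.5 (0.667%, 0.118 to 3.68). Thinning left out 31, 1, 28 and 3 shallower cells of these sets. The cells of the mosquito and MIP-GFP plates over this limit had median insulin shares of 24.3% and 14.3%, against 20.9% and 12.7% in the cells below it. Their mean Ccnd2 count was 3.69 and 4.43 thinned transcripts, against 2.41 and 2.21. Mean Prlr was 1.38 and 2.50, against 1.51 and 1.53, and mean G6pc2 was 4.15 and 6.21, against 4.82 and 5.02, so for both genes the plates ran opposite ways. The 2 live cells over the limit had a median insulin share of 11.8%, against 12.47% in the others. No test was made on these, since cells are not replicates.

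Among the beta-cell markers, 3 of 13 tested genes rose and 1 fell, with a median log2 difference of 0.80. The shares over all genes tested were 3.53% higher and 0.91% lower. Prlr and Ccnd2 are on this list too, and as given markers they are not independent evidence. Apart from Prlr and Ccnd2, G6pc2 rose, with 1233, 1446 and 1437 CPM on the mosquito, live and MIP-GFP plates, against 427, 624, 485 and 555 CPM in EP12, EP14, EP10 and EP17 (log2 difference 1.36, SE 0.26, adjusted p = 0.0202). It stood at 71.9 CPM in E18.5 glucagon-gated cells, against 124 CPM earlier, and the 2 gates' changes differed by 2.17 (SE 0.34, adjusted p = 0.000266). Slc30a8, the zinc transporter of insulin granules, had 709, 861 and 871 CPM, against 87.0, 96.0, 288 and 218 CPM. It lay above every earlier experiment, as did 15.0% of all genes tested, but missed the threshold (2.16, SE 0.53, adjusted p = 0.0518). Its difference between the gates passed the threshold (1.61, adjusted p = 0.000558). Without EP12 or EP14 the stage call of G6pc2 was lost (adjusted p = 0.0622 and 0.0581), and without EP10 or EP17 Slc30a8 passed (0.0201 and 0.00635).

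Other genes of beta-cell maturity did not pass. Ucn3, a peptide that marks mature mouse beta cells, had 53.1, 36.2 and 101 CPM on the mosquito, live and MIP-GFP plates, against 30.4, 21.3, 16.3 and 39.2 CPM in EP12, EP14, EP10 and EP17 (adjusted p = 0.0516), and the live plate lay below EP17. Slc2a2, the glucose transporter GLUT2, had 452, 519 and 580.1 CPM, against 222 to 361 CPM (log2 difference 0.80, adjusted p = 0.183). Iapp did not separate the stages, since EP17 at 20736 CPM lay above all 3 E18.5 plates (log2 difference 0.58, adjusted p = 0.534). Npy, a neuropeptide of immature beta cells, fell: it had 468, 332 and 805 CPM, against 1972, 2385, 1948 and 2919.8 CPM (-1.92, SE 0.37, adjusted p = 0.0225). Without EP17 the differences of Ucn3, Slc2a2 and Iapp passed (adjusted p = 0.00114, 0.0295 and 0.00185), and without EP12 or EP14 that of Npy did not (0.052 and 0.0613).

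Over all genes tested 3.53% were called higher, a share that would give about 1 gene in each of the next lists. Of 19 beta-cell transcription factors tested, 1 rose and 0 fell (median log2 difference -0.27): Bhlha15, a factor of secretory cells also known as Mist1, had 99.9, 128 and 122 CPM, against 38.4 to 67.2 CPM (1.15, adjusted p = 0.0385). Nkx6-1, needed for beta-cell identity, had 637, 368 and 386 CPM, against 156 to 367 CPM (1.12, adjusted p = 0.164). Of 22 glucose-sensing and secretion genes, G6pc2 rose and 0 fell (median 0.45). The sulfonylurea receptor Abcc8 had 1239, 1223 and 1202 CPM, against 509.6 to 843 CPM (0.83, adjusted p = 0.222). Bhlha15 lost its call without EP12, EP14 or EP10 (adjusted p = 0.0825, 0.0522 and 0.0521), while Nkx6-1 passed without EP10 (0.0432) and Abcc8 without EP17 (0.0131).

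Of 25 granule and processing genes, 2 rose and 0 fell, with a median log2 difference of 0.33. Chga had 7407, 5364 and 5878 CPM on the mosquito, live and MIP-GFP plates, against 1894, 1918, 2429 and 2335 CPM in EP12, EP14, EP10 and EP17 (1.65, SE 0.26, adjusted p = 0.00935). Pcsk1, the proinsulin convertase, had 838, 1022 and 932 CPM, against 359 to 453 CPM (1.13, adjusted p = 0.0415). Both genes lay above every earlier experiment on every plate, as did 15.0% of all genes tested. Chgb did not pass, at 4667, 3964 and 4167 CPM, against 2859 to 4379.8 CPM (0.34, adjusted p = 0.525). In glucagon-gated cells Chgb stood at 973 CPM at E18.5, against 2709 CPM earlier, so the gates' changes differed by 1.78 (SE 0.23, adjusted p = 1.6e-05). Of 25 protein-folding genes only Sdf2l1, a chaperone cofactor of the endoplasmic reticulum, rose: 422, 516 and 549 CPM, against 161 to 221 CPM (1.34, adjusted p = 0.00897). Chga had an adjusted p of 0.0503 without EP12, and Pcsk1 0.116, 0.141 and 0.057 without EP12, EP14 and EP10.

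Of 19 genes of endocrine precursors tested, 5 fell and 0 rose (median log2 difference -0.83), and 4 to 8 fell over the alternatives. Over all genes tested, 0.91% were called lower. Gip, the incretin peptide that fetal islet cells transiently make, had 6.42, 6.57 and 8.90 CPM on the mosquito, live and MIP-GFP plates, against 398, 363, 125 and 235 CPM in EP12, EP14, EP10 and EP17 (-5.18, SE 0.69, adjusted p = 0.00403). Cck, another gut peptide, had 0.622, 0 and 2.10 CPM, against 43.3 to 136 CPM (-5.89, adjusted p = 0.00303). Pax4, which promotes the beta-cell fate, had 8.29, 6.57 and 5.76 CPM, against 19.5 to 47.5 CPM (-2.13, adjusted p = 0.0431). Mdk, a growth factor of fetal tissue, had 13.3, 23.0 and 7.86 CPM, against 78.4 to 223 CPM (-3.59, SE 0.54, adjusted p = 0.00704). All 4 lay below every earlier experiment on every plate, as did 13.4% of all genes tested. Gip and Mdk were named by a rule that required this. With the gate at 5% insulin the log2 difference of Pax4 was -0.64. Pax4 lost its call without EP12 or EP14 (adjusted p = 0.0934 and 0.0976). The list's median was -0.90 both in glucagon-gated cells and in the other live cells.

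Of 12 alpha-cell genes tested, 4 fell in the insulin cells at E18.5 and 0 rose, with 2 to 6 lower over the alternatives. The median log2 difference was -0.94, against -0.23 in glucagon-gated cells. The share called lower over all genes tested was 0.91%. Peg10, an imprinted gene of retrotransposon origin, had 74.4, 6.57 and 31.2 CPM on the mosquito, live and MIP-GFP plates, against 763, 946, 591 and 329 CPM in EP12, EP14, EP10 and EP17 (-3.57, SE 0.52, adjusted p = 0.00637), while glucagon-gated cells held 3518 CPM at E18.5, against 4332 CPM earlier. Slc38a5, a glutamine transporter, fell in both: 686, 588 and 566 CPM, against 1619 to 3082 CPM (-1.83, SE 0.37, adjusted p = 0.0273), with a log2 difference of -2.27 in glucagon-gated cells. The gates' changes differed for Irx2, an alpha-cell transcription factor (-1.92, adjusted p = 0.000938), and for Peg10 (-3.29, SE 0.38, adjusted p = 1.7e-06). Irx2 also fell between stages (adjusted p = 0.0484, 0.117 without EP14 and 0.076 without EP10), and Slc38a5 lost its call without EP12 or EP14 (0.0681 and 0.078). Without the mosquito plate the difference between stages was -3.80 for Irx2 and -4.46 for Peg10. With the gate at 5% of transcripts it was smaller, at -1.12 for Irx2 and -2.42 for Peg10. The gates' changes then differed by -0.96 for Irx2 and -1.89 for Peg10.

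Fetal growth and imprinted genes also held members that fell. For the next lists, the share called lower over all genes tested was 0.91%. Of 10 fetal-growth genes tested, 3 fell and 0 rose (median log2 difference -0.60), among them Igf2bp1, an RNA-binding protein of fetal tissue, with 22.2, 29.6 and 21.0 CPM, against 151, 158, 142 and 63.1 CPM (-2.52, adjusted p = 0.0117), and Hmga2, a chromatin protein of growing fetal cells (-1.75, adjusted p = 0.0199). Of 19 imprinted genes, 3 fell (median -0.65): Peg10, Sgce (-2.51, adjusted p = 0.0258) and Mest (-3.29, adjusted p = 0.0411). Of 10 genes that mature beta cells are known to keep low, 2 fell and 0 rose (median -1.48). They were Smad3, a TGF-beta signal carrier (-2.26, adjusted p = 0.00612), and Igfbp4 (-2.59, adjusted p = 0.0467), which stood at 32.9 CPM on the live plate and 1.45 and 1.57 CPM on the mosquito and MIP-GFP plates. Hmga2 and Sgce lost their calls without EP12 (adjusted p = 0.0533 and 0.0586) or EP14 (0.0568 and 0.0836), and Mest and Igfbp4 without EP14 (0.109 and 0.135) or EP10 (0.0686 and 0.0558). With the gate at 0.5% insulin the differences of Mest and Igfbp4 were -1.83 and -1.55 (adjusted p = 0.201 and 0.188). Without the mosquito plate they were -2.61 and -2.01 (0.0944 and 0.114).

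Several of the strongest differences were also seen outside the insulin cells. Ptms, which encodes parathymosin, had 471, 276 and 508 CPM on the mosquito, live and MIP-GFP plates, against 8.09, 6.94, 9.88 and 6.83 CPM in EP12, EP14, EP10 and EP17. Its log2 difference was 5.88 in insulin-gated cells (SE 0.23, adjusted p = 4.33e-06), 5.80 in glucagon-gated cells and 5.14 in the other live cells. Uqcrc1, a subunit of respiratory complex III, had 157, 151 and 147 CPM, against 3.04 to 7.68 CPM (5.14, adjusted p = 9.78e-05), with 5.18 and 3.10 in the other 2 cell sets. The unannotated Gm10548 had 105, 125 and 95.6 CPM, against 0.534 CPM or less (8.40, adjusted p = 2.04e-05, 5.39 and 5.98). Rplp2 and Rpsa, which encode ribosomal proteins, differed by 4.87 (adjusted p = 0.000927) and 2.62 (adjusted p = 0.00897), with 5.96 and 2.65 in glucagon-gated cells. For these 5 genes the E18.5 experiment as a whole stood apart, and day and experiment cannot be told apart.

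Further genes named by their size of change were Stard10, a lipid-transfer protein (4.09, adjusted p = 0.00072, with 4.00 in glucagon-gated cells), and Insrr, a receptor of the insulin receptor family. Insrr had 288, 138 and 266 CPM on the mosquito, live and MIP-GFP plates, against 27.2 to 61.3 CPM (2.69, SE 0.37, adjusted p = 0.00462), with 1.01 in glucagon-gated and 0.87 in the other live cells. The nuclear RNA Neat1 differed by 3.00 (adjusted p = 0.0114, 0.225 by DESeq2). Spp1, which encodes osteopontin of duct cells, had 156, 95.3 and 47.4 CPM, against 4.94 to 9.07 CPM (4.05, adjusted p = 0.000215), and 1 mosquito cell held 148 of its 751 transcripts there. The difference was 2.95 without the mosquito plate. The other live cells held 2251 CPM of Spp1 at E18.5, against 642 CPM earlier, and the part of RNA from other wells in this difference was not tested.

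Of the lower genes, Ddx3y, a Y-linked helicase, was at 0 on all 3 E18.5 plates, against 66.8, 97.6, 162 and 109 CPM in EP12, EP14, EP10 and EP17, so it was at least 325-fold lower by a floor of 3 transcripts over the summed members (0.335 CPM). The Y-linked Eif2s3y, Kdm5d and Uty were also at 0 at E18.5. The sex-linked Xist stood at 224 CPM in the summed members, against 148, 119, 124 and 35.8 CPM in EP12, EP14, EP10 and EP17. Sex of the embryos and stage cannot be told apart, in these genes or in any other stage difference given here. Plcxd3, a phospholipase-like gene (-2.74, adjusted p = 0.00436), Ambp, the precursor of alpha-1-microglobulin (-2.43, adjusted p = 0.0116), Crot, a peroxisomal acyltransferase (-1.51, adjusted p = 0.0153), and Gm1821_2 (-3.54, adjusted p = 0.0352) fell as well. Col6a3, a collagen chain, fell by 1.97 on the log2 scale (adjusted p = 0.0416) and ran the other way in the other live cells, at 2.78. Without EP14 the calls of Crot (adjusted p = 0.0522), Gm1821_2 (0.0581) and Col6a3 (0.097) were lost, and without EP12 that of Col6a3 (0.0825).

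The share of 3.53% called higher over all genes tested would give about 1 gene or fewer in each of the next lists, and 2 or 3 were called. Of 23 immediate-early genes, 3 rose and 0 fell (median log2 difference 0.86, against 1.23 in glucagon-gated and 1.05 in the other live cells). Fosb, a subunit of the AP-1 factor, had 825, 700.1 and 1029 CPM on the mosquito, live and MIP-GFP plates, against 88.0, 136, 296 and 123 CPM (2.48, adjusted p = 0.0183), and Junb and Gadd45b were the others (2.60 and 3.10, adjusted p = 0.023 and 0.00797). Of 11 genes of MHC class I and interferon response, 3 rose (median 0.61), led by H2-K1 with 414, 362 and 404 CPM, against 60.7 to 148 CPM (2.02, adjusted p = 0.0132). Of 16 cholesterol genes, 2 rose (median 0.53), among them Insig1, a brake on sterol synthesis (2.10, adjusted p = 0.011). Of 26 oxidative phosphorylation genes, 2 rose (median -0.16), Uqcrc1 among them. Fosb and Junb lost their calls without EP14 (adjusted p = 0.0546 and 0.0656).

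**Figure D3:**
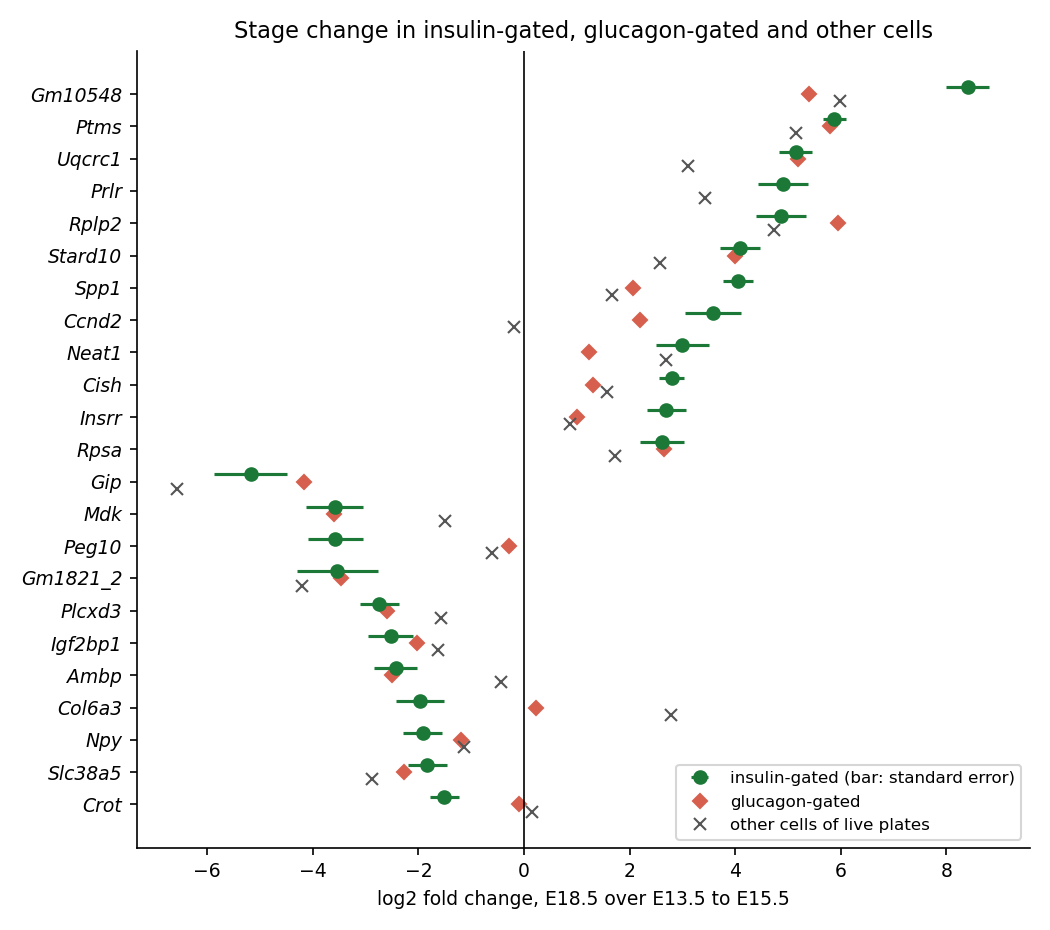
Log2 difference of E18.5 over the earlier experiments (x axis) for the genes named by size of change (rows), in insulin-gated cells with SE bars, glucagon-gated cells and other cells of the live plates. Ptms differs alike in all 3 sets (5.88, 5.80 and 5.14), while Ccnd2 differs by 3.59, 2.19 and -0.18.

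Tested gene by gene, the E18.5 change of insulin-gated cells differed from that of glucagon-gated cells for 66 of 11599 genes (0.569%), 26 higher (0.224%) and 40 lower (0.345%), with a median log2 difference of 0.08 over all genes. Of the 483 genes called between stages and tested here, 23 were called in the same direction and 0 in the opposite one. Both tests use the same insulin-gated sums, so a shared direction is partly built in and is no separate support. Without the experiment as a block 0 genes passed by edgeR (618 at an unadjusted p under 0.05), and DESeq2 called 22.

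The genes whose E18.5 change was higher in insulin-gated than in glucagon-gated cells included enzymes and secretory genes. Not all of them rose in insulin-gated cells: Ftsj1 stood at 49.8 CPM in the summed members, against an earlier mean of 74.0 CPM. Ddc, which makes dopamine and serotonin from their precursors, had 360.2, 161 and 250.1 CPM on the mosquito, live and MIP-GFP plates, against 43.5, 39.0, 97.0 and 101 CPM in EP12, EP14, EP10 and EP17, and 123 CPM in E18.5 glucagon-gated cells, against 107 CPM earlier. Its gates' changes differed by 2.04 (SE 0.33, adjusted p = 0.000336). For Ftsj1, an RNA methyltransferase, the difference of 1.89 (adjusted p = 0.0213) came with 42.3 CPM in E18.5 glucagon-gated cells, against 218 CPM earlier, and no called change in insulin-gated cells (adjusted p = 0.351). Without EP10 the Ftsj1 difference was not called (0.0808).

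Other named genes moved further down relative to glucagon-gated cells. Pygl, the liver glycogen phosphorylase, had 6.22, 3.29 and 7.07 CPM on the mosquito, live and MIP-GFP plates, against 29.3, 44.8, 26.2 and 27.3 CPM, and the changes differed by -2.66 (adjusted p = 0.000951). Pappa2, a protease of IGF-binding proteins, was not called between stages in insulin-gated cells (49.5 CPM in the summed members, against a mean of 50.3 CPM, adjusted p = 0.961) and stood at 178 CPM in E18.5 glucagon-gated cells, against 23.5 CPM earlier (-3.02, adjusted p = 5.64e-06). Pcdh8, a protocadherin (-3.40, adjusted p = 0.000653), and Trf, transferrin (-3.42, adjusted p = 0.000258), were likewise led by the glucagon gate. Serpina1b, an alpha-1-antitrypsin, had 0.207, 0 and 0 CPM in the members, a single transcript, against 26.3, 6.94, 3.20 and 10.2 CPM, so its fitted difference of -6.13 (adjusted p = 2.21e-05) rests on a count near 0.

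Markers of other islet cell types were carried by some members. The alpha list, as a share of non-hormone transcripts, had a median of 0.315%, 0.290% and 0.303% per cell on the mosquito, live and MIP-GFP plates, and 7 mosquito members held 1% or more, up to 3.24%. The pancreatic polypeptide list reached 1% in 5 mosquito, 0 live and 6 MIP-GFP members. The delta list reached it in 1 mosquito member, at 1.40%. Of cell types outside the islet, in CPM, the acinar list summed to 257, 145 and 202 on the mosquito, live and MIP-GFP plates, the immune list to 76.5, 92.0 and 67.6, and the endothelial list to 12.6, 16.4 and 9.2. Mesenchymal markers summed to 69.6 CPM on the mosquito plate, 1045 on the live plate and 76.2 on the MIP-GFP plate, against 27859 in the other cells of the live plate. No live member held more than 0.236% of them. Pecam1, Cdh5, Kdr and Flt1 of endothelium, Ptprc, Lyz2, Cd74 and Tyrobp of immune cells, and the hemoglobin genes were at 0. Of the acinar list Cela2a (4.92, adjusted p = 0.0084) and Bhlha15 were called higher at E18.5, and of the immune list the complement gene C1qa (2.71, adjusted p = 0.00303), with C1qa at 70.3, 59.2 and 58.1 CPM, against 4.05 to 12.8 CPM. No gene of the mesenchymal (9 tested), delta (2), epsilon (2), pancreatic polypeptide (1), endothelial (1) or erythroid (1) lists was called, and of 13 progenitor and duct genes Spp1 alone was. For all these lists, the share called higher over all genes tested was 3.53%, so 1 or 2 calls are not read as a result about a list.

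The members differed among themselves. After thinning, 1542 genes had a mean of at least 0.5 transcripts on both the mosquito plate (260 cells) and the MIP-GFP plate (266 cells). The excess squared coefficient of variation, the variance beyond counting noise divided by the squared mean, had a median of 0.117 on the mosquito plate and 0.0853 on the MIP-GFP plate. Its rank correlation between the plates was 0.341 across genes, and 14 of the 20 most variable genes of each plate were shared. In 16 genes the excess was at least 1 on both plates.

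Peptide genes led the list. Pyy, a gut and islet peptide, had an excess of 10.5 on the mosquito plate and 5.98 on the MIP-GFP plate, with a transcript in 43.8% and 53.0% of the thinned cells. Npy followed at 3.26 and 3.75. Fmo1, a flavin monooxygenase, stood at 2.10 and 1.82, and the linker histone Hist1h1c at 2.56 and 1.68. Genes called between stages were among the 20 named genes as well: Prlr at 1.78 and 1.58, G6pc2 at 1.14 and 1.12, and Ccnd2 at 0.98 and 1.00. The ribosomal Rn45s had 16.9 on the mosquito plate and 1.47 on the MIP-GFP plate, and 1 mosquito cell held 27.8% of its transcripts.

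**Figure D4:**
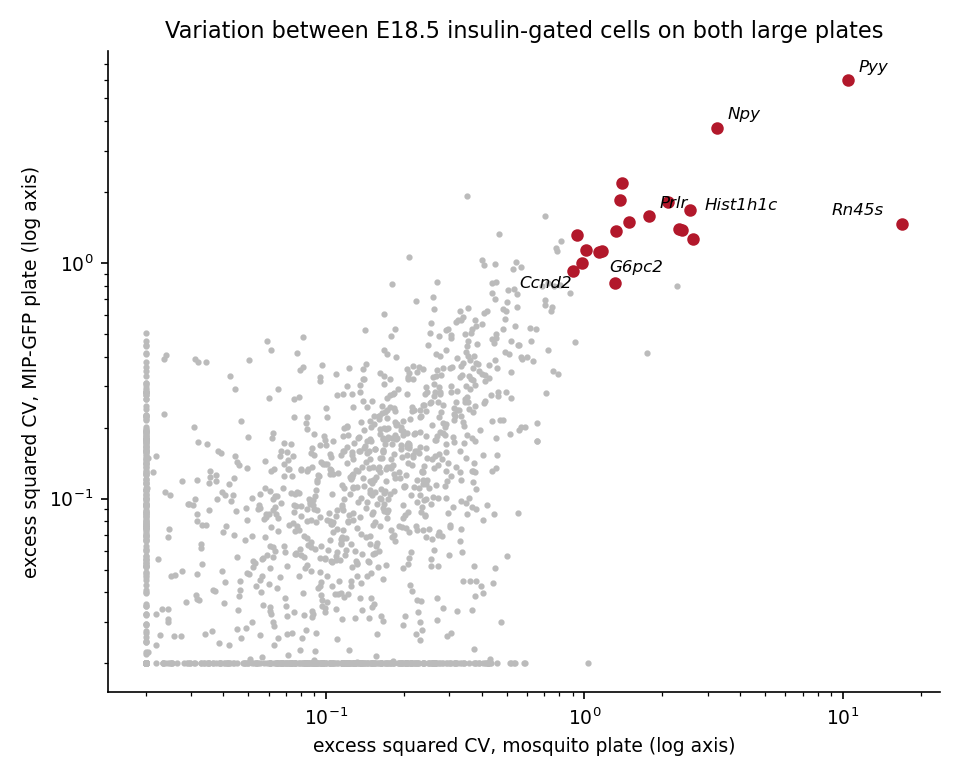
Excess squared coefficient of variation of 1542 genes across thinned members of the mosquito plate (x axis, log) and the MIP-GFP plate (y axis, log), with values under 0.02 drawn at 0.02 and the 20 named genes in red. Pyy is the most variable on the MIP-GFP plate at 5.98, and Prlr, G6pc2 and Ccnd2 lie near 1 or above on both.

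Detection of Prlr in single cells moved with depth. A Prlr transcript was found in 46.9% of thinned cells on the mosquito plate, 57.9% on the live plate and 47.7% on the MIP-GFP plate (66.7%, 70.0% and 61.6% before thinning), against 5.33% of EP10 cells at E15.5 (17.6% before thinning). The other live E18.5 cells, which should mostly lack it, gave 1.75% (6.2% before thinning) at a median depth of 11454 transcripts, against 15619 in the live members. Ccnd2 was found in 65.4%, 63.2% and 64.3% of the thinned members, against 24.0% of EP10 cells, and in 46.7% of the other live cells. Iapp was found in all thinned members of the 3 plates.

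Prlr, Ccnd2 and G6pc2 varied together on both plates. The pairs given here were taken from the strongest among the 20 named variable genes, so their size reflects that choice. The rank correlation across cells was 0.530 on the mosquito plate and 0.538 on the MIP-GFP plate for G6pc2 with Ccnd2, 0.529 and 0.562 for Prlr with G6pc2, and 0.456 and 0.456 for Prlr with Ccnd2. Dbpht2 and 1700086L19Rik, transcripts of unknown role, ran the other way: Dbpht2 had -0.442 and -0.383 with G6pc2 and -0.463 and -0.360 with Prlr. Dbpht2 and 1700086L19Rik went together at 0.428 and 0.340. These are descriptions over 260 and 266 cells that share a plate and a depth of 4000 transcripts, and no p is given.

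The same genes followed the insulin share, which thinning left out of the count. The single genes given were taken from those with the strongest rank correlations on both plates among 1542 genes, so their size reflects that choice. The rank correlation with it on the mosquito and MIP-GFP plates was 0.457 and 0.385 for G6pc2, 0.407 and 0.367 for the secreted glutathione peroxidase Gpx3, 0.434 and 0.365 for Iapp, 0.353 and 0.378 for the prohormone-processing enzyme Cpe, 0.390 and 0.337 for Prlr, and 0.459 and 0.274 for Ccnd2. Pyy (-0.379 and -0.309), Mid1ip1 (-0.297 and -0.296) and Dbpht2 (-0.441 and -0.217) ran against it. Depth before thinning moved with insulin share at -0.12 on the mosquito plate and -0.33 on the MIP-GFP plate. Its part in these values was not tested. Ins1 or Ins2 stood at the ceiling in 100 of 294 MIP-GFP members. Insulin shares of those cells are lower bounds, so ranks on that plate are partly capped, and the part of this was not tested. Summed by list, protein-folding genes followed the insulin share at 0.29 and 0.30, and beta-cell transcription factors at -0.36 and -0.29.

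In transcripts, the highest quartile of insulin share held 7.46 of G6pc2 per cell, against 1.71 in the lowest quartile, on the mosquito plate (65 cells each), and 7.34 against 3.03 on the MIP-GFP plate (67 cells each). Prlr averaged 2.31 against 0.354 on the mosquito plate and 3.00 against 0.761 on the MIP-GFP plate. Ccnd2 averaged 3.97 against 0.600, and 3.27 against 1.48. Pyy ran the other way, at 0.769 against 10.0 on the mosquito plate and 1.55 against 7.63 on the MIP-GFP plate. The lowest quartile ran up to 13.8% insulin on the mosquito plate, which has no ceiling, and up to 9.01% on the MIP-GFP plate. On the MIP-GFP plate the quartiles were cut on shares that are lower bounds in capped cells.

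**Figure D5:**
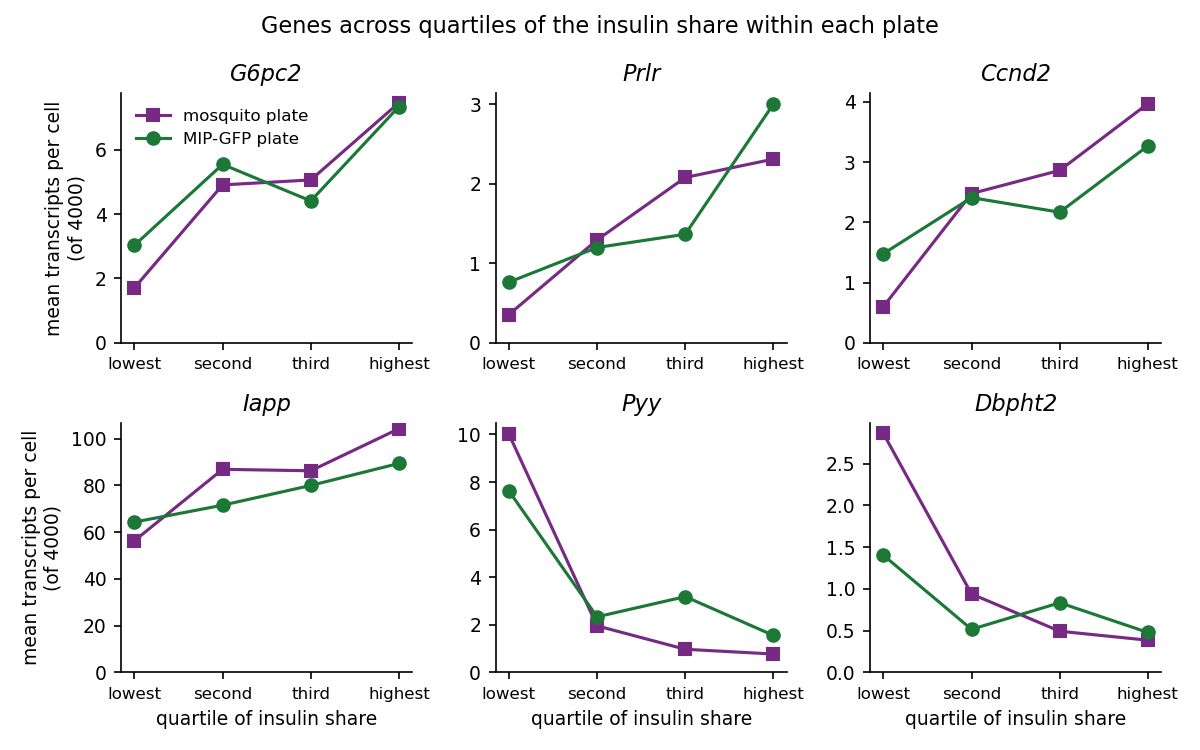
Mean thinned transcripts per cell (y axis) of 6 genes by quartile of insulin share, lowest to highest (x axis), for the mosquito and MIP-GFP plates. G6pc2 reaches 7.46 and 7.34 in the highest quartile, and Pyy is highest in the lowest quartile, at 10.0 and 7.63.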

How the data were processed

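Wells were labelled by plate, and groups followed the labels' age, sort and experiment. The authors deposited 1 table of expected counts, molecular-barcode counts corrected for barcode collisions, for 19788 features and 7296 wells. Of its columns, 1536 matched no sample used here. Reads of 75 bases were processed with BWA and Seurat against mm10, per the submitters' processing notes, with parameters not given in the sources used here. A gene reads at most 1597 transcripts per well on all plates but the mosquito plate.

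Counts were rounded and summed over gated cells per experiment (at least 10 cells per sum), with the 6 hormone genes and spike-ins outside library sizes and tests. edgeR 4.0.16 in R 4.3.3 (TMM, filterByExpr, quasi-likelihood test, Benjamini-Hochberg at 0.05 over all genes tested) compared stages. It also tested the gate-by-stage interaction with the experiment as a block. DESeq2 1.42.0 was an alternative. The other alternatives moved the gate, the filters, the plates used and each experiment in turn. SE is the log2 difference divided by the root of F. On simulated counts with 100 genes changed by 2 log2 units, 92 of 100 were recovered between stages and 63 of 100 in the interaction. The changed genes were drawn only among those above a minimum mean count. The E18.5 sums were simulated with the same spread as the earlier ones. These rates therefore cover neither low-count genes nor an E18.5 experiment that varies differently. Sums held 988396 to 3441739 non-hormone transcripts in the earlier experiments and 8947876 at E18.5. Cell-to-cell variation was computed after seeded thinning to 4000 transcripts (numpy 2.4.6). No doublet caller was run: no member exceeded 5 times its plate's median depth, and 8 wells of the series did.

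Genes were named by rule. Between stages these were the 12 per direction with the largest change among called genes with at least 100 CPM whose plates did not overlap the earlier experiments. For the interaction they were the 6 per direction, for plates the 8 per direction at 50 CPM or more, and for variation the 20 most variable on both plates. List members with the smallest p, the label's markers and the D-type cyclins were added. Gene pairs and genes that followed the insulin share were taken from the strongest rank correlations on both plates. The members and the 26 gene lists were chosen with earlier results of these data known. Promoter windows came from RefSeq (GRCm38.p6). Some genes are not reported here.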

Additional observations from a re-analysis of the deposited data

Results flagged for a closer look

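For 16 genes that the text names, the E18.5 change in insulin-gated cells differed from that in glucagon-gated cells by edgeR's interaction test. The difference on the log2 scale was above 0 for G6pc2 (2.17), Ddc (2.04), Ftsj1 (1.89), Chgb (1.78), Slc30a8 (1.61), Ccnd2 (1.49), Chga (1.12) and Mki67 (2.57). It was below 0 for Pygl (-2.66), Pappa2 (-3.02), Peg10 (-3.29), Pcdh8 (-3.40), Trf (-3.42), Serpina1b (-6.13), Irx2 (-1.92) and Sgce (-2.07). The E18.5 side of the glucagon gate holds 15 cells, whose part in these values was not tested.

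In the group of 4 earlier experiments, 3 values stood far from the other values of their gene in insulin-gated cells. Igf2bp1 stood at 63.1 CPM in EP17, Pygl at 44.8 CPM in EP14, and Mest at 4.05 CPM in EP12. Chance marks about 1 in 20 groups in this way. The highest and lowest values of each gene named in the stage and interaction comparisons were examined. Some would therefore be marked by chance alone.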

How the results depend on the processing

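Leaving out 1 earlier experiment moved the count of genes called between stages to 201 to 1240, against 493 with all 4. It was 145 with the gate at 5% of transcripts and 162 against the E15.5 experiments alone, with fewer earlier experiments in both. The 9 other settings gave 451 to 728 genes. DESeq2 called 469, with 304 higher and 165 lower (64.8% higher, compared with 79.5% by edgeR). For the interaction, 66 genes became 22 by DESeq2, 111 with no filter on low counts, 27 with the gate at 5%, and 0 with no experiment block, while leaving out an experiment gave 45 to 75. Of the 20 most variable genes, 11 were named again with thinning to 0.5 times the depth, 10 at 1.5 times the depth, 3 with a minimum mean of 0.2 and 11 with a minimum mean of 1. The causes of these moves were not tested.

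Of 49 named genes called between stages, 26 were called under each alternative run and 32 with the gate at 5%. Of 16 called in the interaction, 0 were called under each alternative, since none passed with no experiment block, and 6 passed with the gate at 5%. The log2 difference between stages moved by over 1.5-fold for 18 of 48 named genes with the gate at 5%, 7 against the E15.5 experiments alone, 5 without the mosquito plate and 0 to 4 in each other setting. That of the interaction did so for 7 of 16 with the gate at 5%, 5 without the mosquito plate and 0 to 2 in each other setting. Iapp, not called, reversed with the gate at 5% (-0.0123), and the uncalled interaction of Top2a (2.20 without EP14) reversed without EP10 (-1.21) and with the gate at 5% (-1.46). The number of members was 564 to 616 over the alternatives, and with hormones in the total 18 genes differed between the mosquito and MIP-GFP plates, against 24. The interaction without the EP16 MIP-GFP plate was not run, since 7 glucagon-gated cells were left. The interaction pairs the gates within each experiment through its block, which does not remove differences between the plates of an experiment. Without the mosquito plate, EP16 keeps 314 of 605 insulin-gated cells and 14 of 15 glucagon-gated cells. The interaction then called 73 genes, 52 of them shared with the main 66. The part of plate differences in single genes was not tested. For the comparison of stages, no paired analysis was possible because library numbers are not in the plate columns and the stages share no experiment.

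Depth is a limit for the glucagon-gated sums of E18.5 (236467 transcripts) and EP17 (225861) and for the 20 live members (304224), and genes near the floor of 3 transcripts have uncertain fold changes.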

Other observations

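Other genes among the 20 most variable on both plates were of several kinds. The activity-linked genes Rasd1, Arc and Gem had an excess squared coefficient of variation of 1.49, 0.94 and 1.31 on the mosquito plate and 1.49, 1.32 and 0.82 on the MIP-GFP plate. The cell-surface gene Cd24a had 1.40 and 2.18, the histone gene Hist1h2bc 2.63 and 1.26, and the ubiquitin-conjugating enzyme Ube2s 1.02 and 1.14. The amino acid transporter Slc38a5 had 2.33 and 1.40, with a transcript in 65.8% and 60.2% of the thinned cells. Enpp2, which encodes the lysophospholipid enzyme autotaxin, followed the insulin share at a rank correlation of 0.378 on the mosquito plate and 0.306 on the MIP-GFP plate. The tubulin genes Tubb4b (-0.291 and -0.281) and Tuba1a (-0.307 and -0.239) and the retinol carrier Rbp4 (-0.297 and -0.232) ran against it.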
